A study of Mus musculus with 19 samples.

Results

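Genes that pattern the mouse retina along its dorsoventral axis, namely Vax1, Vax2, Tbx2, Tbx3, Tbx5, Aldh1a1, Aldh1a2, Aldh1a3, Cyp26a1 and Cyp26c1, were followed in RNA-seq libraries of 2 populations of retinal ganglion cells (RGCs), the neurons whose axons leave the eye. These 10 genes were chosen by name and read from count tables of 47069 genes by Ensembl identifier. The study compared RGCs that project to the same side of the brain (ipsilateral, iRGCs) with RGCs whose axons cross the midline (contralateral, cRGCs). Both populations were GFP-positive cells sorted from retinas of embryos at E16.5 that carried the Cre-dependent CAG-[Stop]-Sun1-GFP reporter, which marks the nuclear envelope, in the Rosa26 locus. iRGCs came from embryos with Slc6a4-Cre, driven by the gene of the serotonin transporter (Sert), and cRGCs from embryos with Pou4f2-Cre (Brn3b), a driver active in most RGCs, after the ventrotemporal (VT) part of the retina had been cut away. The labels give both populations as C57/DBA F1 embryos of both sexes, pooled, and wild type apart from these transgenes. According to the paper, gene targeting placed Pou4f2-Cre in the Pou4f2 (Brn3b) locus itself, while Slc6a4-Cre is a GENSAT line. The populations therefore also differ in their Pou4f2 allele. There were 3 libraries per population, with 28193178 to 30874653 reads counted on genes in iRGCs and 28274471 to 33638083 in cRGCs. The labels do not say how many embryos went into each library, so p-values measure the spread between these libraries. Because Cre acts once and for good, GFP also marks descendants of any cell in which the driver was active.

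The eye cup has a ventral domain marked by the homeobox factors Vax1 and Vax2 and a dorsal domain marked by the T-box factors Tbx2, Tbx3 and Tbx5. Retinoic acid is made by retinaldehyde dehydrogenases, of which Aldh1a1 is known from the dorsal and Aldh1a3 from the ventral retina, while Aldh1a2 serves mainly the tissue around the early eye. Between these domains lies a band of Cyp26a1 and Cyp26c1, cytochromes P450 that oxidise retinoic acid. iRGCs arise in the VT retina, hence the interest in where these genes stand in cells sorted as iRGCs.

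Markers other than those of this axis also differed between the sorted populations. All 13 retinal progenitor markers were higher in iRGCs (edgeR, called where the adjusted p-value was under 0.1), as were 23.3% of all tested genes, and their median log2FC, the log2 fold change of iRGCs over cRGCs, was 2.55. Their summed level was 9796, 8463 and 7391 CPM in iRGC replicates 1, 2 and 3 and 849.95, 2193 and 1395 CPM in cRGC replicates 1, 2 and 3. CPM are counts scaled to a common library size after TMM normalization, and the most abundant progenitor marker was the cyclin gene Ccnd1. Of 14 RGC markers, 12 were called lower in iRGCs, as were 23.1% of all tested genes, and the median log2FC of the list was -1.93. They summed to 3202, 4405 and 6351 CPM in the iRGC libraries and to 15754, 14439 and 17394 CPM in the cRGC libraries, with Tubb3 as the most abundant. The exceptions were Atoh7, a factor of newly committed RGC precursors, which was higher in iRGCs (log2FC 1.48), and Thy1, which was not called. The log2FC of Thy1 was -2.06 (edgeR adjusted p = 0.121). With a single library left out it ran from -2.99 to -1.56, and Thy1 was then called lower in some fits (lowest edgeR adjusted p = 0.0278). None of the progenitor or RGC markers was at 0 in every library. In bulk RNA, a smaller number of cells of one type and less RNA per cell cannot be told apart.

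**Figure D1:**
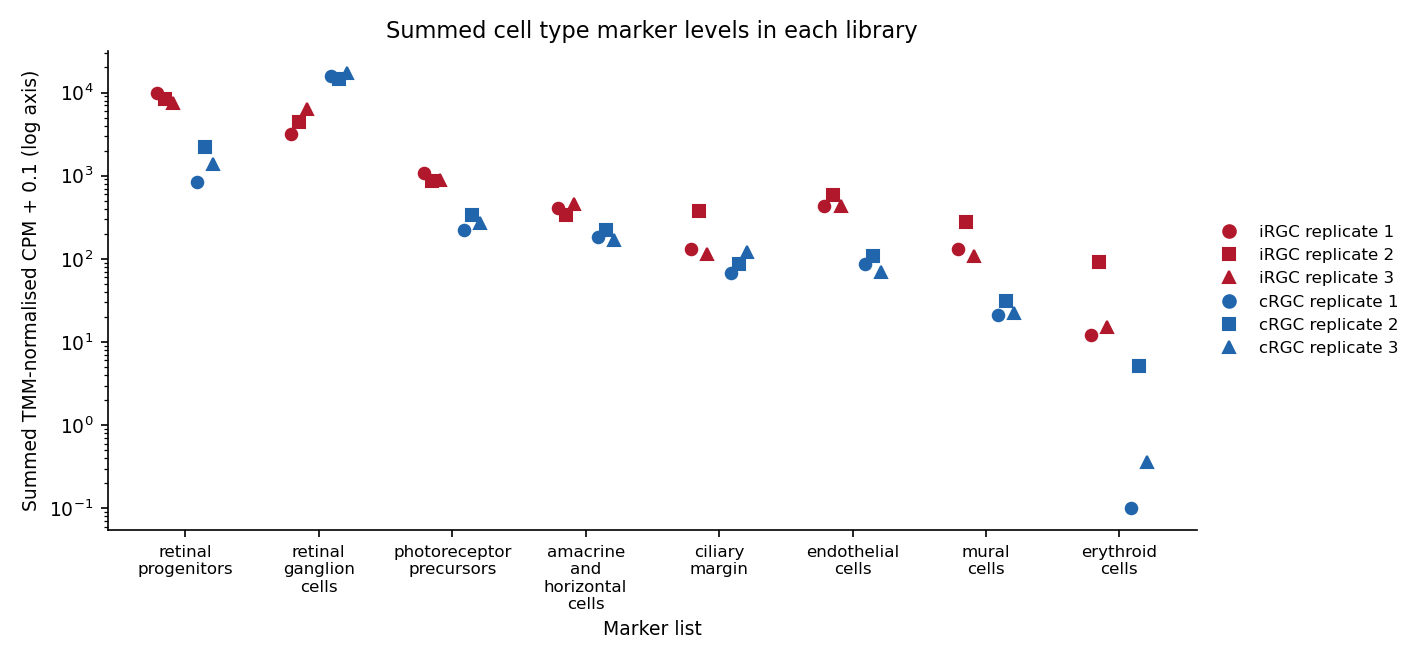
Summed TMM-normalised CPM (log axis, 0.1 added) of 8 marker lists in each of the 6 libraries, red for iRGCs and blue for cRGCs, 1 symbol per replicate number. Progenitor markers lie at or above 7391 CPM in each iRGC library and at or below 2193 CPM in each cRGC library, RGC markers lie the other way, and iRGC replicate 2 is highest in ciliary margin, endothelial, mural and erythroid markers. Kdr is the most abundant gene in the endothelial sum and Notch3 in the mural sum.

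Libraries also stood apart within a population. Genes with at least 1 read numbered 16564, 19323 and 20283 in iRGC replicates 1, 2 and 3 and 17831, 19279 and 19145 in the cRGC replicates. A count of 0 in iRGC replicate 1 or cRGC replicate 1 is read with this in mind. Zic2, the factor known for specifying iRGCs, was at 133, 173 and 157 CPM in iRGCs and at 57.0, 60.2 and 65.6 CPM in cRGCs, higher in every iRGC library. Slc6a4, the gene that drives the iRGC sort, was at 2.06, 33.3 and 116 CPM in iRGC replicates 1, 2 and 3 and at 48.1, 35.4 and 30.5 CPM in the cRGC libraries. In the library labelled iRGC replicate 1 it therefore lay below every cRGC library, and over all libraries it was not called (log2FC 0.41, SE 0.93, edgeR adjusted p = 0.768). Its sign turned without iRGC replicate 3 (log2FC -1.11, edgeR adjusted p = 0.345). The sign also turned with limma voom (-0.86, adjusted p = 0.512) and with the replicate number as a block (-0.54, edgeR adjusted p = 0.774). Pou4f2, the driver gene of the other sort, was at 74.6, 133 and 98.1 CPM in iRGCs and at 191, 196 and 293 CPM in cRGCs. The Cre of the cRGC embryos lies in this locus, and its part in the Pou4f2 level was not tested. iRGC replicate 2 was the highest library for ciliary margin, endothelial, mural and erythroid markers, with summed levels of 378, 579.9, 274 and 92.5 CPM. cRGC replicate 3 had the highest sum of RGC markers but less Isl2 (45.7 CPM against 130.3 and 111), Pou4f1 (431 against 860.4 and 671) and Thy1 (3.19 against 46.4 and 39.1) than cRGC replicates 1 and 2, while Pou4f2 and Isl1 (708 against 643 and 532 CPM) were highest there. Where leaving out 1 library changed a call of a patterning gene, or of a listed retinoic acid, dorsal, ventral or nasotemporal gene, this is given with the result. For markers of cell types, calls gained in this way are given only in part.

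Of the 10 patterning genes, 9 had enough counts to be tested, and 7 of these 9 differed between the populations at an adjusted p-value under 0.1 (edgeR quasi-likelihood test, two-sided, Benjamini-Hochberg adjustment over 15941 genes). Such a call was common in this comparison, since 46.4% of all tested genes had one. Tbx2, Tbx3, Aldh1a1, Aldh1a3 and Cyp26a1 were higher in iRGCs, a direction that 23.3% of tested genes took. Vax2 and Tbx5 were lower in iRGCs, as were 23.1% of tested genes. Vax1 and Aldh1a2 were not called, and Cyp26c1 had too few counts to be tested. Adding the requirement of an absolute log2FC above 1 left 6 of the 9, against 23.1% of tested genes, and removed Tbx2. In 6 of the 9 the libraries of the populations did not overlap, which held for 55.3% of tested genes. The median log2FC of the 9 was 1.25, beside a median of -0.003 over all tested genes. Without the library labelled iRGC replicate 1, Vax1 was also called higher and the call of Tbx5 was lost. The progenitor markers moved in the same direction as the genes called higher, and their part in these differences was not tested.

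**Figure D2:**
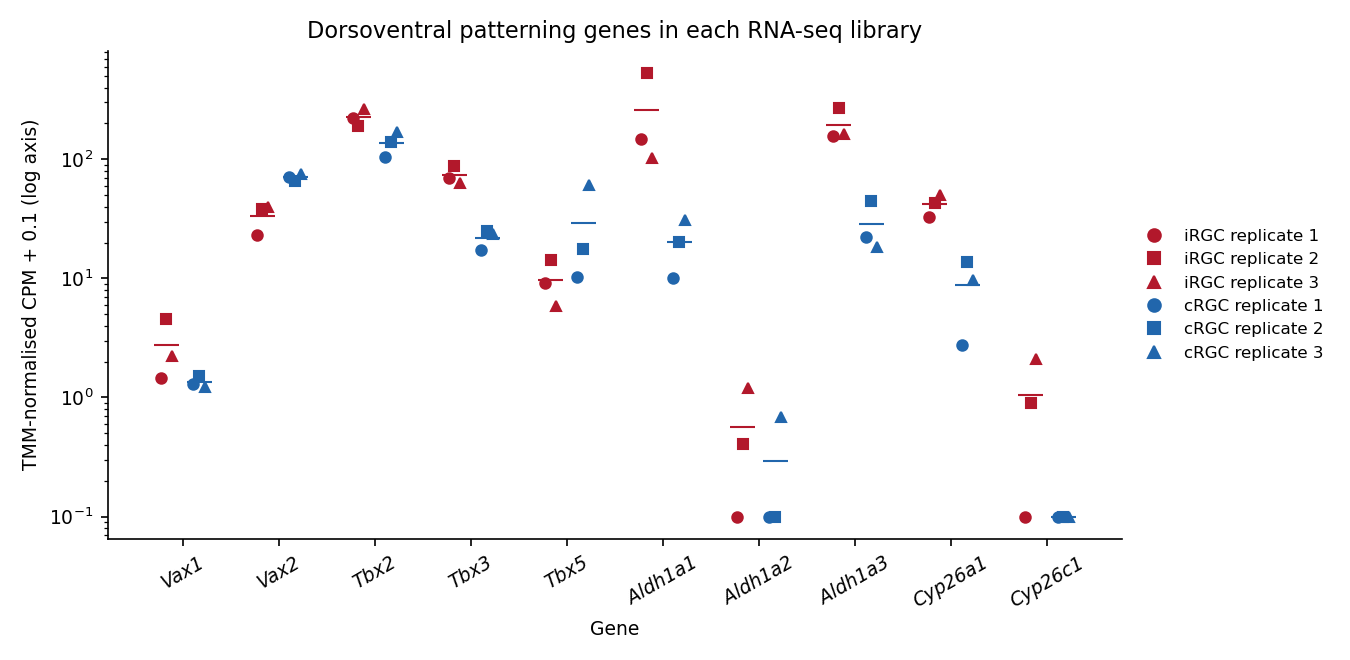
TMM-normalised CPM (log axis, 0.1 added so that 0 can be drawn) of the 10 patterning genes in each library, red for iRGCs and blue for cRGCs, with 1 symbol per replicate number and a line at the mean of 3 libraries. The populations are separate for Vax2, Tbx2, Tbx3, Aldh1a1, Aldh1a3 and Cyp26a1 and overlap for Vax1, Tbx5, Aldh1a2 and Cyp26c1.

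Among the ventral factors, Vax2 was lower in the cells sorted as iRGCs, although the paper places iRGCs in the VT retina. The position of the sequenced cells was not tested here. Vax2 (ENSMUSG00000034777, chr6:83711264-83738313, plus strand, positions in GRCm38 here and for the other genes) is a homeobox factor needed for ventral retinal identity and for the mapping of RGC axons. Its level was 22.8, 38.0 and 39.6 CPM in iRGC replicates 1, 2 and 3 and 71.3, 65.2 and 75.0 CPM in the cRGC replicates. Every iRGC library thus lay below every cRGC library, and the means of 33.5 ± 9.26 and 70.5 ± 4.91 CPM (SD, n = 3) were 2.11-fold apart. On the log2 scale the difference was -1.07 (SE 0.20, edgeR adjusted p = 0.00303). Leaving out the library labelled iRGC replicate 1 gave -0.86 (edgeR adjusted p = 0.00186), and over all 6 libraries left out in turn the value stayed between -1.22 and -0.86.

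Vax2os (chr6:83692806-83712201, minus strand) is an antisense gene that overlaps the start of Vax2 and lies mostly before it. It shares no exonic base with Vax2 and was chosen after its values were seen. Its level was 31.2, 58.2 and 40.3 CPM in iRGCs and 101, 86.5 and 66.2 CPM in cRGCs. Vax2os was likewise lower in iRGCs in every library, with a log2FC of -0.96 (SE 0.24, edgeR adjusted p = 0.0112). The strand setting of the counting is not given in the sources used here, so intronic and antisense signal at this locus may not be fully separate.

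Vax1 (ENSMUSG00000006270, chr19:59166187-59170056, minus strand) is the relative of Vax2 that is known mainly from the optic stalk. Its level was low, with 1.35, 4.44 and 2.14 CPM in iRGCs and 1.19, 1.41 and 1.13 CPM in cRGCs, from 31 to 144 reads per library. The populations overlapped, since iRGC replicate 1 lay below cRGC replicate 2. Its log2FC of 1.09 (SE 0.67) was not called (edgeR adjusted p = 0.241). Without iRGC replicate 1 it was 1.40 and passed the threshold (edgeR adjusted p = 0.0904), and without iRGC replicate 2, the highest library, it was 0.49 (edgeR adjusted p = 0.688).

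The dorsal T-box factors did not move as a group. Tbx2 and Tbx3 were higher in iRGCs, and Tbx5 had a lower mean, with a call that single libraries decided.

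Tbx2 (ENSMUSG00000000093, chr11:85832551-85841948, plus strand), a repressor of the dorsal retina, was at 221, 190.0 and 265 CPM in iRGCs and at 105, 139 and 168 CPM in cRGCs. The lowest iRGC library lay above the highest cRGC library by a small margin. The means of 225 ± 37.5 and 138 ± 31.5 CPM (SD, n = 3) differed by 0.71 on the log2 scale (SE 0.18, edgeR adjusted p = 0.0140), and the value was 0.73 without iRGC replicate 1.

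Tbx3 (ENSMUSG00000018604, chr5:119670669-119684724, plus strand), a T-box repressor closely related to Tbx2, showed the larger difference. Its level was 69.1, 87.4 and 63.4 CPM in iRGCs against 17.2, 24.7 and 23.3 CPM in cRGCs. The populations were well separated, with means of 73.3 ± 12.5 and 21.7 ± 3.95 CPM (SD, n = 3), a 3.37-fold difference. The log2FC of 1.75 (SE 0.18, edgeR adjusted p = 2.44e-04) stayed within 1.61 to 1.87 with any library omitted. The antisense gene Tbx3os1 overlaps 115 bases (1.74%) of the Tbx3 exons. It had at most 1.80 CPM in any library, against at least 17.2 CPM for Tbx3.

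Tbx5 (ENSMUSG00000018263, chr5:119832668-119885219, plus strand) lies 147943 bases beyond Tbx3 on the same chromosome and is the T-box factor most restricted to the dorsal retina. It was at 9.09, 14.2 and 5.76 CPM in iRGCs and at 10.1, 17.4 and 60.4 CPM in cRGCs. The populations overlapped, and cRGC replicate 3 alone stood high. Its log2FC of -1.60 (SE 0.61) passed the threshold (edgeR adjusted p = 0.0686), but without cRGC replicate 3 it was -0.50 (edgeR adjusted p = 0.452). The call was also lost without iRGC replicate 1 (-1.56, edgeR adjusted p = 0.1499) and without iRGC replicate 3 (-1.34, edgeR adjusted p = 0.159). On all 6 libraries it was lost with the replicate number as a block (-1.20, edgeR adjusted p = 0.222) and with limma voom (-1.34, adjusted p = 0.125). Within each library, the ratio of Tbx3 to Tbx5 reads was 7.60, 6.17 and 11.01 in iRGCs and 1.71, 1.42 and 0.385 in cRGCs, a ratio chosen after the values were seen and given without a test.

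**Figure D3:**
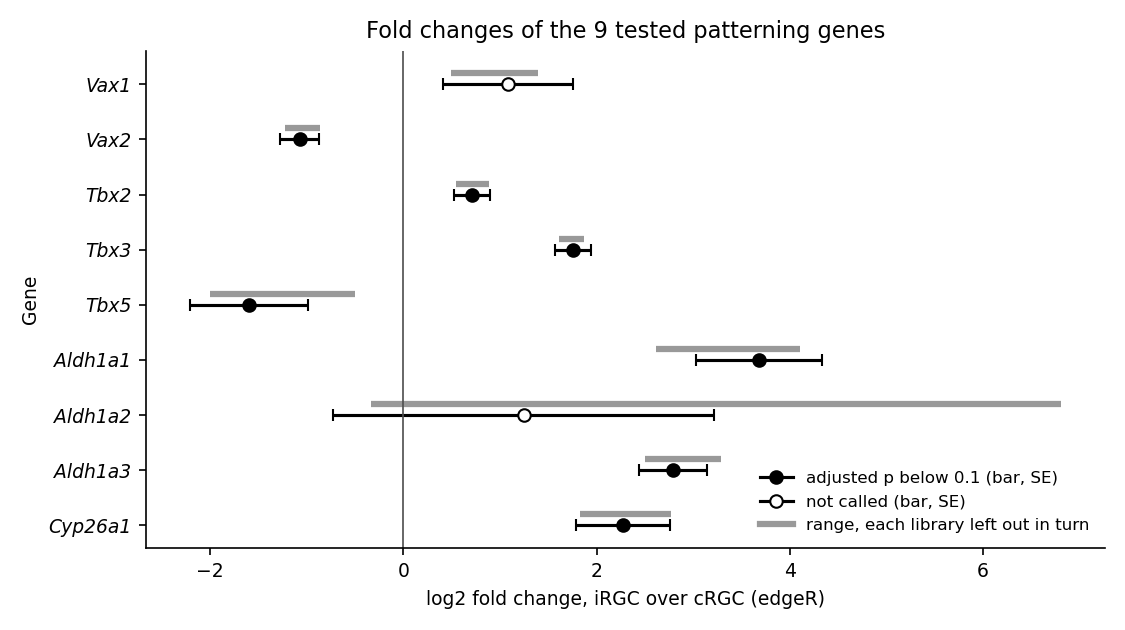
Log2FC (iRGC over cRGC, edgeR) of the 9 tested patterning genes with its SE, filled where the adjusted p-value was under 0.1, and in grey the range of the estimate when each of the 6 libraries was left out in turn. The grey bars of Vax2, Tbx2, Tbx3, Aldh1a1, Aldh1a3 and Cyp26a1 keep to one side of 0 and the estimates stay called, whereas Tbx5 reaches -0.50 and Aldh1a2 runs from -0.33 to 6.81.

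Of the 9 tested patterning genes, Aldh1a1 and Aldh1a3, which make retinoic acid, had the largest log2FCs, and the direction was the same for the gene known from the dorsal retina and for the gene known from the ventral retina. Aldh1a1 (ENSMUSG00000053279, chr19:20492715-20643465, plus strand) was at 147, 531 and 103 CPM in iRGCs and at 10.03, 20.3 and 30.5 CPM in cRGCs. All iRGC libraries lay above all cRGC libraries, and iRGC replicate 2 was more than 3 times as high as the other iRGC libraries. The means were 260.1 ± 235 and 20.3 ± 10.2 CPM (SD, n = 3), and the log2FC was 3.68 (SE 0.65, edgeR adjusted p = 0.00218). Without iRGC replicate 2 it fell to 2.62 and was still called (edgeR adjusted p = 0.00308), and without iRGC replicate 1 it was 3.96. Since iRGC replicate 2 was also the highest library for ciliary margin markers, summing to 378 CPM against 132 and 114 CPM in iRGC replicates 1 and 3, the part of these cells in the Aldh1a1 level of that library was not tested. Of the 9 ciliary margin markers, with Rdh10 as the most abundant and none at 0 in every library, those called higher in iRGCs are not counted, since Msx1 (0, 5 and 4 reads in cRGCs) and Wfdc1 (0, 5 and 14 reads) passed the filter on low counts mainly through the iRGC libraries. The calls of Msx1, Wfdc1, Gja1 and Ccnd2 were lost with limma voom (adjusted p from 0.137 to 0.250) and those of Rdh10 and Msx1 without iRGC replicate 2 (edgeR adjusted p of 0.316 and 0.125).

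Aldh1a3 (ENSMUSG00000015134, chr7:66390890-66427517, minus strand), the enzyme of the ventral retina, was at 156, 268 and 163 CPM in iRGCs and at 22.3, 44.3 and 18.2 CPM in cRGCs. The populations did not overlap, with means of 196 ± 62.4 and 28.3 ± 14.1 CPM (SD, n = 3), a 6.92-fold difference. Its log2FC was 2.79 (SE 0.35, edgeR adjusted p = 4.44e-04), and 2.50 without iRGC replicate 2. In both populations replicate 2 was the highest library for Aldh1a3.

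Aldh1a2 (ENSMUSG00000013584, chr9:71215789-71296243, plus strand) was close to absent. It had 0, 10 and 35 reads in iRGC replicates 1, 2 and 3 and 0, 0 and 18 reads in the cRGC replicates. The library at 18 reads was cRGC replicate 3, so the populations overlapped. The log2FC of 1.25 (SE 1.97, edgeR adjusted p = 0.665) was not called, and its sign depended on which library was left out. With 3 reads taken as the limit of a count of 0, for counting error alone, that limit is 0.0964 CPM in iRGC replicate 1. It is 0.115 and 0.103 CPM in cRGC replicates 1 and 2. Loss of low genes from a library is not covered by this limit, and iRGC replicate 1 had the fewest genes with a read (16564).

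Of the enzymes that break retinoic acid down, Cyp26a1 was higher in iRGCs and Cyp26c1 had a few reads in 2 of 3 iRGC libraries and was not tested. Cyp26a1 (ENSMUSG00000024987, chr19:37697798-37701536, plus strand) was at 32.7, 43.2 and 49.8 CPM in iRGCs and at 2.65, 13.7 and 9.61 CPM in cRGCs. No iRGC library reached down to the cRGC libraries, and the means were 41.9 ± 8.62 and 8.65 ± 5.58 CPM (SD, n = 3). The log2FC of 2.27 (SE 0.48, edgeR adjusted p = 0.00539) stayed within 1.83 to 2.77 with any library omitted.

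Cyp26c1 (ENSMUSG00000062432, chr19:37685581-37693398, plus strand) ends 4399 bases before Cyp26a1 begins. It had 0, 26 and 64 reads in iRGC replicates 1, 2 and 3 and no read in any cRGC library. The populations overlapped at 0, because iRGC replicate 1 had none. Pooled over the 3 libraries, iRGCs had 90 reads (0.944 CPM). Against a floor of 3 reads over the cRGC group (0.0349 CPM), that pooled level was 27.1-fold higher. This value covers counting error in cRGCs alone and not the spread between libraries, so it is no lower bound. It rests on 2 of the 3 iRGC libraries and is 11.7-fold without iRGC replicate 3. The gene did not pass the filter on low counts. In the fit without a filter it was called higher in iRGCs (edgeR adjusted p = 0.0323) with no cRGC read in the comparison. Fits that left out iRGC replicate 1 or a cRGC library admitted the gene through its reads in iRGC replicates 2 and 3 alone, and their results (edgeR adjusted p from 0.0141 to 0.122) are given as values and not as support.

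Cyp26a1 is a textbook target of retinoic acid receptors, which bind direct repeats of a 6-letter half-site, so the sequence before its start is shown beside that of Rarb, the receptor gene known for a site of the same kind. Promoter windows from RefSeq (GRCm38.p6), with 250 bases before and 50 after each gene start, were held for 5 of the 10 patterning genes (Vax1, Aldh1a1, Aldh1a2, Cyp26a1 and Cyp26c1) and for 18 of the 26 genes when the listed genes of retinoic acid handling and the receptors are added. The half-sites searched were AGGTCA or AGTTCA and the variants GGGTCA or GGTTCA, on both strands, as direct repeats with 5 or 2 bases between them. Repeats with 5 bases between them stood in 32 of 32851 windows (0.0974%) and those with 2 bases between them in 88 (0.268%). Among the windows of the 18 genes, Cyp26a1 and Rarb held the first kind and no window held the second. Capitals mark the repeat, which in Cyp26a1 reads on the opposite strand and ends 15 bases before the start (chr19:37697726-37697807, plus strand), and in Rarb reads on the strand of the gene and ends 36 bases before the start (chr14:16575477-16575579, minus strand). Starts are those of the RefSeq windows, and lie 10 bases (Cyp26a1) and 243680 bases (Rarb) downstream of the outermost start of the gene in GENCODE M21, so the Rarb window lies inside that gene.
Cyp26a1: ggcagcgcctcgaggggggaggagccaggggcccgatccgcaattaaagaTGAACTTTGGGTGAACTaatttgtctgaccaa
Rarb: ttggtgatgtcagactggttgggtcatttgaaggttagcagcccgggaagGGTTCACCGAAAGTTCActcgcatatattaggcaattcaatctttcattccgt
A match of letters is not a bound site. The 2 genes that hold it differed in these data, as Cyp26a1 was higher in iRGCs while Rarb was at 12.7, 15.6 and 15.8 CPM in iRGCs and at 12.02, 12.8 and 8.55 CPM in cRGCs and was not called (log2FC 0.40, SE 0.23, edgeR adjusted p = 0.213). The T-box motif AGGTGTGA, searched on both strands, stood in 419 windows (1.28%), among them 1 of Aldh1a1, 184 bases before the RefSeq start (316 bases before the GENCODE start) on the opposite strand, and in no other window of the 18 genes.

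Levels per kilobase of exon allow the genes to be set against each other. All exons annotated in GENCODE M21 for a gene were joined for this length. In iRGCs the order by mean CPM per kilobase was Tbx2 (62.1), Aldh1a1 (52.7), Aldh1a3 (42.4), Vax2 (26.9), Cyp26a1 (21.1), Tbx3 (11.1), Vax1 (2.37), Tbx5 (2.07), Cyp26c1 (0.538) and Aldh1a2 (0.208). The ranges of neighbours overlapped between Tbx2 and Aldh1a1, Aldh1a1 and Aldh1a3, Vax2 and Cyp26a1, Vax1 and Tbx5, and Cyp26c1 and Aldh1a2, and were separate for the other neighbours. In cRGCs the order was Vax2 (56.8), Tbx2 (37.9), Tbx5 (6.27), Aldh1a3 (6.13), Cyp26a1 (4.36), Aldh1a1 (4.11), Tbx3 (3.28), Vax1 (1.11), Aldh1a2 (0.0855) and Cyp26c1 at 0. There each of the 5 genes from Tbx5 to Tbx3 overlapped its neighbour, although Aldh1a3 lay above Tbx3 in every library, while Vax2 stood above Tbx2 and Tbx2 above Tbx5 in every library. The ventral factor Vax2 thus had the highest level per kilobase of the 10 genes in each cRGC library. Some means rested on 1 library. Without cRGC replicate 3 the cRGC mean of Tbx5 was 2.94 CPM per kilobase, and without iRGC replicate 2 the iRGC means of Aldh1a1 and Vax1 were 25.3 and 1.56. Without iRGC replicate 3 those of Cyp26c1 and Aldh1a2 were 0.230 and 0.0681. In iRGCs the range of Vax2 lay below those of Tbx2 and Aldh1a3 and overlapped that of Aldh1a1.

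Ratios within a library do not depend on normalization between libraries, and 5 of the 7 pairs considered had at least 10 reads for both genes in every library. The ratio of Vax2 to Tbx2 reads was 0.103, 0.200 and 0.1496 in iRGCs and 0.677, 0.469 and 0.446 in cRGCs. That of Vax2 to Tbx3 was 0.330, 0.434 and 0.624 in iRGCs and 4.13, 2.64 and 3.22 in cRGCs. Both ventral-to-dorsal ratios were lower in each iRGC library than in any cRGC library, with differences of -1.84 and -2.87 log2 units (means of -2.78 ± 0.48 against -0.94 ± 0.33, and of -1.16 ± 0.46 against 1.71 ± 0.32, SD, n = 3). The ratio of Vax1 to Vax2 was 0.0592, 0.117 and 0.0541 in iRGCs and 0.0167, 0.0217 and 0.0151 in cRGCs, higher in each iRGC library by 2.03 log2 units on average. For each of these 3 ratios the exact permutation test, two-sided, gave p = 0.1, the smallest value that 3 libraries against 3 allow, and 0.167 after adjustment over the 5 pairs.

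The other 2 ratios overlapped between the populations. Vax2 to Tbx5 was 2.51, 2.68 and 6.87 in iRGCs and 7.05, 3.75 and 1.24 in cRGCs (exact permutation p = 1, n = 3 per population). Aldh1a3 to Aldh1a1, the ventral over the dorsal enzyme, was 1.06, 0.504 and 1.58 in iRGCs and 2.22, 2.19 and 0.597 in cRGCs (exact permutation p = 0.5, adjusted 0.625, n = 3 per population). The difference of -0.59 log2 units in the second ratio was smaller than the SD in either population (0.84 and 1.09). In each population 1 library, iRGC replicate 2 and cRGC replicate 3, had more Aldh1a1 than Aldh1a3 reads.

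**Figure D4:**
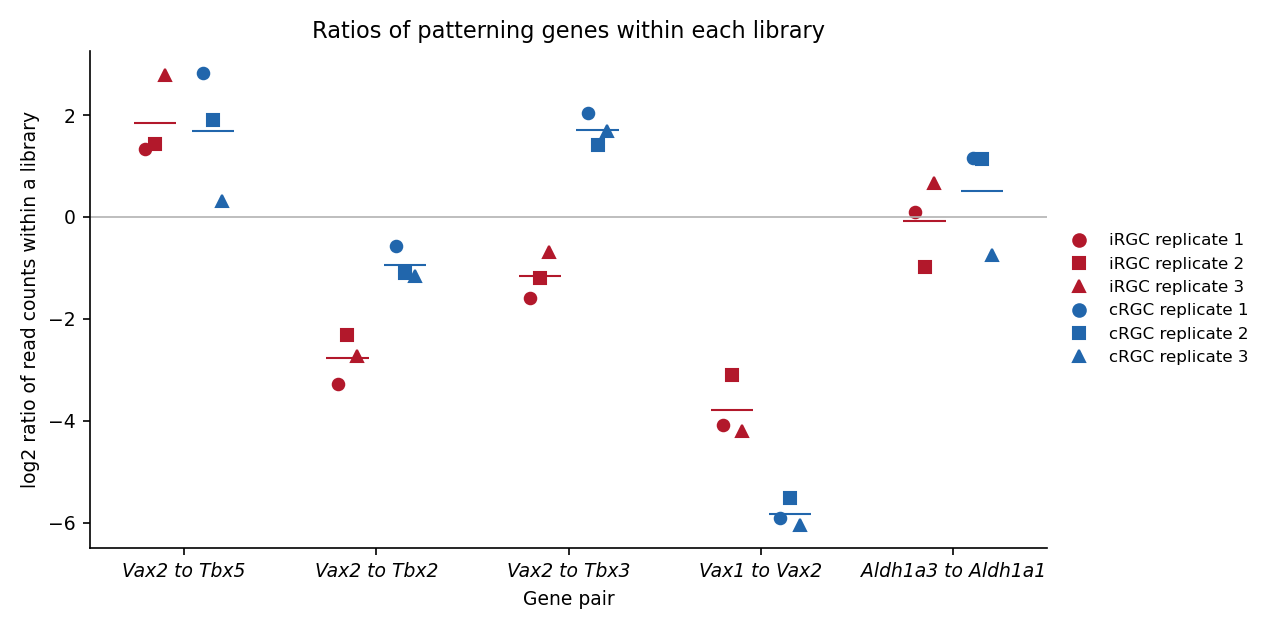
Log2 ratio of read counts of 5 gene pairs within each library, red for iRGCs and blue for cRGCs, 1 symbol per replicate number, with a line at the mean of 3 libraries. Vax2 to Tbx2 and Vax2 to Tbx3 are lower and Vax1 to Vax2 is higher in every iRGC library, and the other pairs overlap.

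Other genes that handle retinoic acid included calls in both directions. Of 10 listed genes, 2 were called higher and 2 lower in iRGCs and 6 were not called, with a median log2FC of -0.44, where 23.3% and 23.1% of all tested genes were called higher and lower. Higher in iRGCs was Crabp2, a binding protein that carries retinoic acid to the nucleus, at 98.8, 99.3 and 68.7 CPM against 33.5, 30.9 and 51.1 CPM in cRGCs (log2FC 1.21, SE 0.22, edgeR adjusted p = 0.00254). Rdh10, which makes retinaldehyde from retinol, was called with a log2FC of 0.64 (edgeR adjusted p = 0.0890) while its libraries overlapped. This call was lost without iRGC replicate 2 (0.37, edgeR adjusted p = 0.316), iRGC replicate 3, cRGC replicate 1 or cRGC replicate 2, and Rdh10 also counts among the ciliary margin markers. Lower in iRGCs were the fatty acid and retinoic acid carrier Fabp5 (-1.05) and the cytoplasmic retinoic acid carrier Crabp1 (-1.38). Crabp1 stood at 37.9, 48.5 and 44.5 CPM in iRGCs and at 77.4, 65.8 and 197 CPM in cRGCs, with cRGC replicate 3 apart as it was for Tbx5. Without that library the log2FC of Crabp1 was -0.71 (edgeR adjusted p = 0.0122). The third degrading enzyme, Cyp26b1, was at 0, 2.13 and 0.976 CPM in iRGCs and at 7.88, 4.72 and 3.61 CPM in cRGCs. All its iRGC libraries lay below the cRGC libraries, with a log2FC of -2.38 (SE 1.12) that was not called (edgeR adjusted p = 0.129) except without iRGC replicate 1 (-1.80, edgeR adjusted p = 0.0373), without iRGC replicate 2 (-3.45, 0.0848), with no filter (0.0812), with DESeq2 (0.0448) and with limma voom (0.0482), so its values lay in the other direction from those of Cyp26a1. Rdh11, Dhrs3, Rbp4, Stra6 and Lrat were not called. Stra6 was called lower without iRGC replicate 2 (-1.53, edgeR adjusted p = 0.00566), Rdh11 lower without iRGC replicate 3 (-0.42, edgeR adjusted p = 0.0361) and Rbp4 higher with DESeq2 (adjusted p = 0.0755).

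Among 6 retinoid receptors, 1 was called in each direction, no larger a share than the 46.4% of all tested genes called. Rxra was at 68.5, 52.9 and 64.1 CPM in iRGCs against 15.2, 25.5 and 16.2 CPM in cRGCs (log2FC 1.71, SE 0.22). Rxrg, which is also a marker of photoreceptor precursors, was at 22.4, 30.4 and 43.4 CPM against 71.2, 61.9 and 70.3 CPM (log2FC -1.08, SE 0.22). Rara, Rarb, Rarg and Rxrb were not called, and the median over the 6 receptors was -0.09.

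Further genes of the dorsoventral axis did not follow one side. Of 8 listed dorsal genes 7 were tested, 3 were higher and none was lower in iRGCs, beside 23.3% and 23.1% of all tested genes, with a median log2FC of 1.08. Efnb2, the ephrin of the dorsal retina, was at 233, 286 and 217 CPM in iRGCs against 91.0, 104 and 124 CPM in cRGCs (log2FC 1.20, SE 0.15). Cyp1b1, a cytochrome of the eye, rose by 1.18 and the ephrin Efnb1 by 0.62. The dorsal signal Bmp4 had at most 3.55 CPM in any library and was not called, nor were Bmp2, Gdf6 and Nr2f2, and Msx2 was not tested. Single omissions gave calls for Nr2f2 without cRGC replicate 3 (0.65, edgeR adjusted p = 0.0377), for Gdf6 without cRGC replicate 2 (0.83, edgeR adjusted p = 0.0846) and for Bmp4 without cRGC replicate 1 (edgeR adjusted p = 0.0257), where no cRGC read of Bmp4 remained. Bmp4 and Nr2f2 were also called with limma voom (adjusted p of 0.0977 and 0.0814), Bmp4 with DESeq2 (0.0670) and Nr2f2 with at least 10 counts required in every library (0.0988).

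Of 10 listed ventral genes 9 were tested, 5 were higher and 2 lower in iRGCs, beside 23.3% and 23.1% of all tested genes, with a median log2FC of 0.79. Bmpr1b, a BMP receptor, had the largest value, with 39.0, 63.7 and 34.7 CPM in iRGCs against 7.30, 11.1 and 7.71 CPM in cRGCs (log2FC 2.39, SE 0.28). Zic2 (1.34), Chrdl1 (0.87), Nr2f1 (0.79) and Ntn1 (1.68) were also higher. The ephrin receptors of the ventral retina went the other way or were not called. Ephb3 was lower (-0.71, SE 0.19), Ephb2 was slightly lower (-0.24, SE 0.10), and Ephb1, the receptor known from iRGCs, was at 57.3, 57.5 and 109.6 CPM in iRGCs and at 69.2, 85.1 and 115 CPM in cRGCs and was not called (log2FC -0.26, SE 0.28, edgeR adjusted p = 0.499). Without iRGC replicate 3 Ephb1 was called lower (-0.66, edgeR adjusted p = 0.0350). The call of Ephb2 was lost on leaving out any library but iRGC replicate 3 (edgeR adjusted p up to 0.262), and that of Ntn1 without iRGC replicate 2, iRGC replicate 3 or cRGC replicate 3 (up to 0.135), with a log2FC of 1.54 to 1.59 in those fits. Smoc1 was not called and Pax2 was not tested. Genes named here are read against 46.4% of all genes called, and the progenitor markers, higher in iRGCs by a median of 2.55, moved with both lists. Their part in these values was not tested.

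**Figure D5:**
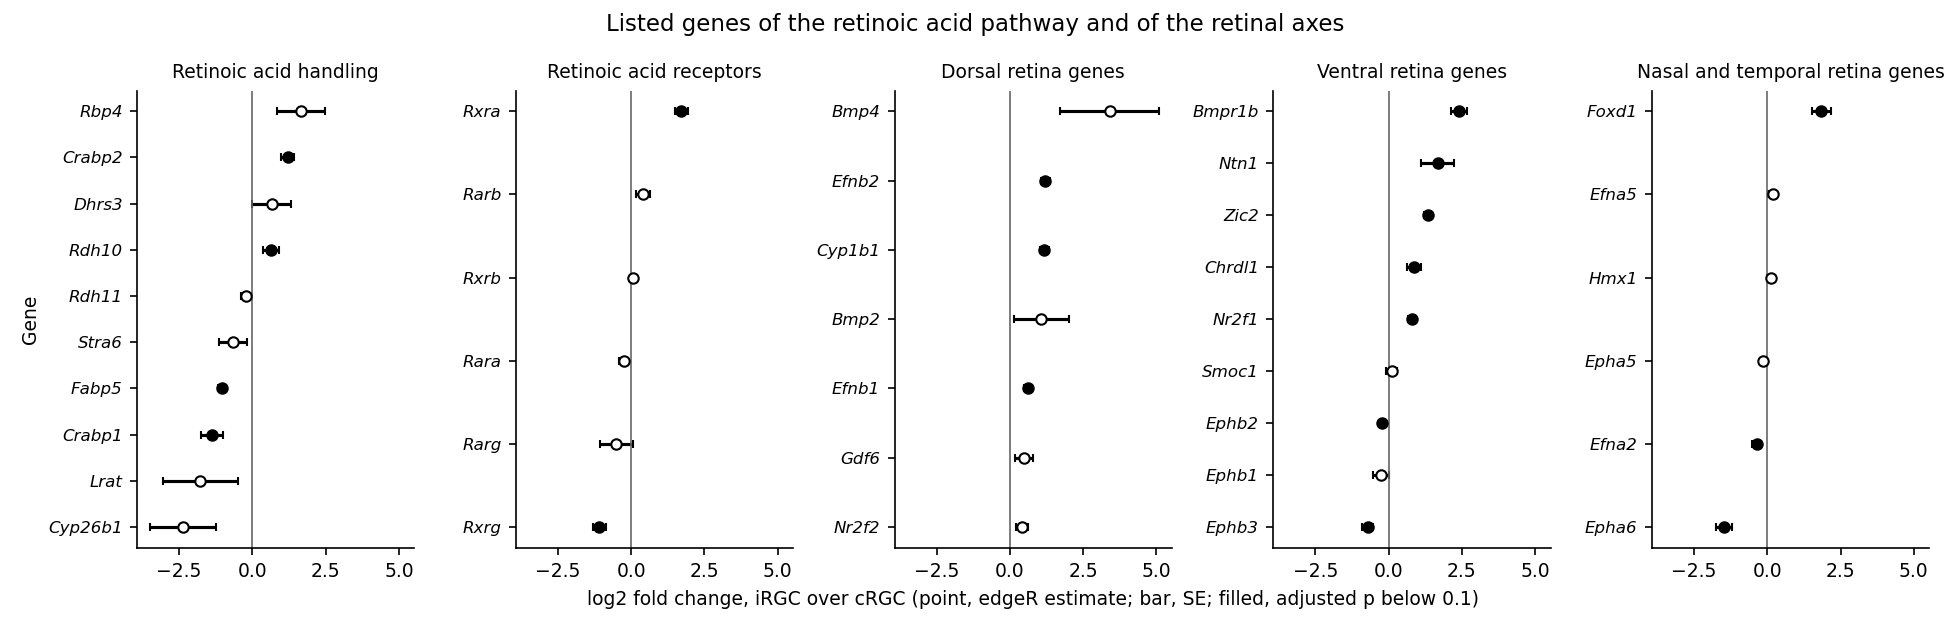
Log2FC (iRGC over cRGC, edgeR) with its SE for the tested genes of 5 lists, filled where the adjusted p-value was under 0.1. Retinoic acid handling spreads to both sides of 0, called dorsal genes lie above 0, and ventral genes include both Bmpr1b at 2.39 and Ephb3 at -0.71.

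The genes whose levels over the 6 libraries were most like the leading patterning gene of each role were not patterning genes. The search covered 10274 genes with a mean of at least 10 CPM, and likeness was Pearson's r of log2 CPM. For Vax2 they were Shisa5, Cox19 and Lancl3 (r from 0.998 to 0.999), and for Tbx2 they were Spsb1, Chtop and Babam1 (r of 0.992). For Aldh1a1 they were Cgn, Tmem184b and Pnpt1 (r from 0.997 to 0.998), and for Cyp26a1 they were Rhno1, Ehd4 and Erg28 (r from 0.996 to 0.997). An r above 0.95 was reached by 1214 genes for Vax2, 89 for Tbx2, 211 for Aldh1a1 and 398 for Cyp26a1, so likeness of this degree was common over 6 libraries in 2 populations.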

How the data were processed

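RNA-seq libraries, 3 of each population, were analysed, and the 13 ATAC-seq samples were not analysed here. The authors aligned reads to mm10 with HISAT2 2.1.0, counted them on Ensembl genes of GRCm38 with HTSeq 0.11.1 and deposited whole counts per gene without normalization. Their own test used DESeq2 1.26.0. HTSeq's tallies that name no gene were left out, 8.09% to 16.8% of tallied alignments for no gene and 0.618% to 0.649% for ambiguous ones. Alignments that were not unique, also left out, were 29.6% to 33.0% of tallies in iRGCs and 25.9% to 28.2% in cRGCs. Those not aligned were 1.41% to 2.42%. Symbols, positions and exon lengths came from GENCODE M21 (GRCm38) for 46488 of 47069 genes.

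Counts were tested with edgeR 4.0.16 in R 4.3.3 (filterByExpr, TMM factors from 0.921 to 1.10, quasi-likelihood test, no covariate), and SEs were the absolute log2 fold change over the square root of F. Calls used an adjusted p-value under 0.1. The biological coefficient of variation common to all tested genes was 36.3%. Small changes of low genes may have been missed, and the smallest detectable change was not tested. Tests were run first on simulated counts with known changes. Alternatives were DESeq2 1.42.0, limma 3.58.1 (voom), 2 other scalings, 2 other filters, libraries left out, a replicate block, an adjusted p-value under 0.05 and a fold change threshold. Figures used matplotlib 3.10.9 in Python 3.11.15.

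The 10 genes, the gene lists and the tests were chosen with earlier results of these data known. Named genes were all 10, up to 4 called genes per list with the largest change and a mean of at least 5 CPM, other listed genes where needed to account for a list, genes overlapping a patterning gene, and the 3 genes most alike for 1 gene per role. Slc6a4, Vax2os, Tbx3os1 and the Tbx3 to Tbx5 ratio were added after their values were seen. Some listed genes are not reported here.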

Additional observations from a re-analysis of the deposited data

How the results depend on the processing

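Vax2, Tbx2, Tbx3, Aldh1a1, Aldh1a3 and Cyp26a1 kept their direction and their call under all 13 alternative fits. The count of patterning genes called higher in iRGCs was 5 in the reported fit, 6 with no filter (with Cyp26c1) and 4 with the fold change threshold (without Tbx2), and ranged from 5 to 7 with single libraries omitted, with 7 without iRGC replicate 1, where Vax1 was added and Cyp26c1 entered through its reads in iRGC libraries alone. The count called lower was 2 and became 1, by loss of Tbx5, with limma voom, with the replicate block and with an adjusted p-value under 0.05, and ranged from 1 to 2 with single libraries omitted. For Tbx5 the log2 fold change was -1.34 with limma voom and -1.20 with the replicate block. The log2 fold change of Aldh1a2 turned to -0.33 without iRGC replicate 3 and rose to 6.81 without cRGC replicate 3, where no cRGC read remained. Leaving out each library, the difference in log2 ratio of Vax2 to Tbx5 ranged from -0.52 (without cRGC replicate 3) to 0.73, against 0.16 with all libraries, and was -0.30 without iRGC replicate 3. The other differences in log2 ratio ranged from -2.07 to -1.59 (Vax2 to Tbx2), -3.11 to -2.65 (Vax2 to Tbx3), 1.68 to 2.24 (Vax1 to Vax2) and -1.22 to -0.14 (Aldh1a3 to Aldh1a1). Of 38 tested genes in the joined pathway lists, 12 were called higher and 7 lower in the reported fit, beside 23.3% and 23.1% of all tested genes. Over the alternative fits these counts stayed between 10 and 14 and between 5 and 9. Calls over all genes meanwhile ranged from 6303 to 7790. Libraries with the same replicate number did not deviate together (r of -0.012, -0.024 and -0.055), so the numbers were not taken as pairs, and the replicate block left 5 patterning genes higher and 1 lower and called 6751 genes in all, against 7395. The other scalings moved the median log2 fold change of all genes by 0.0047 (DESeq2's size factors) and 0.026 (upper quartile). Aldh1a2, Cyp26c1 and Vax1 had low counts, with at most 35, 64 and 144 reads in any library, and whether depth limited their calls was not tested.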

Other observations

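Along the nasotemporal axis, 6 of 7 listed genes were tested, 1 was higher and 2 were lower in iRGCs, and the median log2 fold change was close to 0, in a comparison where 46.4% of all tested genes were called. Foxd1, the forkhead factor of the temporal retina, was at 23.9, 27.8 and 35.7 CPM in iRGCs and at 5.15, 7.31 and 11.9 CPM in cRGCs (log2 fold change 1.84, SE 0.31, adjusted p = 0.00177, edgeR and Benjamini-Hochberg). The ephrin receptor Epha6 was lower (-1.48, SE 0.26) and so was the ephrin Efna2 (-0.37, SE 0.15). Leaving out any library but iRGC replicate 3 ended the call of Efna2 (edgeR adjusted p up to 0.261). Hmx1, Efna5 and Epha5 were not called, although Hmx1 was called higher without iRGC replicate 1 (0.27, edgeR adjusted p = 0.0862) and Efna5 higher without iRGC replicate 3 (0.31, edgeR adjusted p = 0.0869), and Foxd2 was not tested.

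Markers of other cell types gave these values, again beside 46.4% of all tested genes called. Of 7 photoreceptor precursor markers 6 were tested, 5 were higher in iRGCs and Rxrg was lower. Of 9 amacrine and horizontal cell markers 6 were higher and 3 were not called, with Tfap2b as the most abundant. With a single library left out, Lhx1 was called higher in some fits (lowest edgeR adjusted p = 0.0760) and Onecut1 lower (lowest edgeR adjusted p = 0.0783). Their log2 fold changes with all libraries were 0.96 and -0.58. The most abundant endothelial marker, Kdr, was at 365, 319.8 and 418 CPM in iRGCs and 83.6, 103 and 67.6 CPM in cRGCs, and Pecam1 at 9.64, 52.9 and 0.283 CPM in iRGCs and at 0, 0.724 and 0 CPM in cRGCs. Erythroid markers summed to 12.2, 92.5 and 15.2 CPM in iRGCs and to 0, 5.10 and 0.258 CPM in cRGCs, mural markers to 132, 274 and 107 against 20.8, 31.1 and 22.3 CPM, and microglial markers to 11.7, 19.0 and 12.7 against 0.653, 3.59 and 1.35 CPM. The most abundant mural marker, Notch3, was at 113, 117 and 83.4 CPM in iRGCs and 17.1, 26.7 and 18.6 CPM in cRGCs. Rgs5 was at 3.76, 93.6 and 2.24 CPM in iRGCs and at most 0.322 CPM in cRGCs. Kdr and Notch3 were thus more even over the iRGC libraries than Pecam1 and Rgs5. The endothelial and mural sums therefore do not show how many such cells a library held. Members such as Adgrf5 (endothelial) and Alas2 (erythroid) had no read in any cRGC library and passed the filter on low counts through the iRGC libraries alone, so the calls of these lists are not counted. With single libraries left out, the calls of Hba-a1, Hbb-bs and Hbb-bt (erythroid), C1qa (microglia), Esam and Pecam1 (endothelial), Msx1 and Rdh10 (ciliary margin) and Aldh1l1 (astrocytes) were each lost in at least 1 fit. All 9 were lost without iRGC replicate 2 (edgeR adjusted p from 0.104 to 0.463), and Rdh10, Aldh1l1, Esam, C1qa and Hbb-bt also without iRGC replicate 3 or a single cRGC library (up to 0.254). With limma voom the calls of Rgs5 (mural, adjusted p = 0.4196), Gja1, Wfdc1 and Ccnd2 (ciliary margin), Adgrf5, Esam and Pecam1 were lost as well, with the highest value for Esam (0.537), as were those of Msx1 and the 3 globin genes. With the replicate block those of Esam (0.373) and C1qa (0.107) were lost, and with DESeq2 those of Hbb-bs (0.131) and Hbb-bt (0.129). Of the optic stalk and astrocyte markers 3 were tested, with Slc1a3 higher and Aldh1l1 lower. Pdgfra, which is also on the list of periocular mesenchyme markers, was not called (log2 fold change -0.60). With a single library left out it was called lower in some fits (lowest edgeR adjusted p = 0.0653). Of the periocular mesenchyme markers, where Aldh1a2 is known to be made, 3 of 10 were tested and 1 (Col1a2) was higher, and their summed level was at most 37.7 CPM, in iRGC replicate 2. Pigment epithelium and lens markers had 3 and 1 tested genes and none called in the reported fit. Of these, the pigment epithelium gene Dct (log2 fold change 2.81, edgeR adjusted p = 0.118) passed the threshold in an alternative fit.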
